A study of Mus musculus with 6 samples.

Results

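The neuregulin ligand genes Nrg1, Nrg2, Nrg3 and Nrg4 and the ErbB receptor genes Egfr, Erbb2, Erbb3 and Erbb4 were described in hematopoietic stem cells (HSCs) of wild-type (WT) and Merit40-/- mice. These 8 genes were taken by symbol from 23185 named genes, each measured by 1 probe set. Nrg4 was chosen by its readings, which were higher in Merit40-/- HSCs in this same comparison, and the other 7 genes were added as members of the same ligand and receptor families. The HSCs were sorted from adult bone marrow of mice labelled young, as CD150+CD48- cells that lack lineage markers and carry Sca-1 and c-Kit (LSK cells), and were neither cultured nor treated. Merit40, the product of Babam1, is a subunit shared by the BRISC and BRCA1-A deubiquitinating complexes, and the labels give the Merit40-/- genotype without naming the allele, the strain or the sex. Each genotype had 3 arrays, labelled as biological replicates 1 to 3. The labels do not say how many mice each array holds, so the spread between arrays may be partly technical.

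Neuregulins are growth factors with an EGF-like domain that are usually released from membrane-bound precursors by proteases. They bind ErbB3 and ErbB4, whereas Egfr (ErbB1) is the receptor of EGF and its nearest relatives. ErbB2 has no known ligand of its own and acts as the preferred dimer partner, and ErbB3 has little kinase activity, so pairs of receptors pass the signal on to the RAS-MAPK and PI3K-AKT kinases. Nrg4 is a ligand of ErbB4 and is best known as a factor secreted by brown fat, and EGFR signalling has been studied in the recovery of HSCs after irradiation.

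The promoter of Nrg4 is shown because Nrg4 is the member whose readings differed between the genotypes. RefSeq promoters (GRCm38.p6) were at hand for 5 of the 8 genes, namely Nrg3, Nrg4, Egfr, Erbb2 and Erbb4. The 250 bases before the annotated start of Nrg4 lie at chr9:55283626-55283875 on the minus strand, and capitals mark the letters that matched a searched motif.
Nrg4: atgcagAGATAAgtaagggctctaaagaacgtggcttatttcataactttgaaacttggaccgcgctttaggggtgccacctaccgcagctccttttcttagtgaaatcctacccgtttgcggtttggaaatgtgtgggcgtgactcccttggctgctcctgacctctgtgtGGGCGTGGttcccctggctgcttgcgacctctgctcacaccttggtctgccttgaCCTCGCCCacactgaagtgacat

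Both strands were searched for letters bound by factors of blood cells and for a TATA box, and the motifs were chosen after the sequence had been seen. The first match, AGATAA, is a GATA motif at 244 to 239 bases before the start. The other capitals match the KLF motif CCNCNCCC, once on the opposite strand at 78 to 71 bases and once at 23 to 16 bases before the start. Over 32851 promoter windows of the same length, 16.6% held AGATAA or TGATAA and 45.9% held CCNCNCCC. The windows of Nrg3, Erbb2 and Erbb4 also held CCNCNCCC, and none of the other 4 windows held a GATA motif. For RUNX only the form TGTGGT was searched, which was found in 14% of windows and not in the Nrg4 window. The related form TGCGGT, which the Nrg4 window does hold, was not searched or counted over the windows. The ETS motif CCGGAA, found in 12% of windows, was in those of Egfr and Erbb4 but not in that of Nrg4. A TATA box, TATAAA, was in 12.4% of windows and in none of the 5. These matches describe the letters only, as no binding was measured.

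The values are log2 expression values normalised together by RMA, with array medians of 4.91 to 4.97. Babam1, the gene behind the genotype, read 7.91 to 8.05 in WT and 3.87 to 4.29 in Merit40-/-, as the labels say. All 10 measured HSC marker genes lay above a mark of low signal, set at 4.58, the 95th percentile of the means of 1082 olfactory receptor genes, which HSCs should not express. The same mark was passed by 8 of 9 measured granulocyte and monocyte genes and by all 8 measured erythroid genes. Among the sorting genes, Kit read 10.96 in WT and 11.06 in Merit40-/- and Slamf1 (CD150) read 8.05 and 8.23. The Kit readings did not overlap, by a narrow margin (at most 10.99 in WT, at least 10.991 in Merit40-/-). The Sca-1 gene Ly6a was not analysed here. Merit40-/- replicate 1 carried high skeletal muscle genes (Acta1 at 10.42, at most 6.35 elsewhere) and Merit40-/- replicate 3 high readings of some osteoclast genes (Ctsk at 7.94, at most 3.89 elsewhere). Merit40-/- replicate 2 had neither at such levels, so results are also given for it alone.

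Nrg4 stood higher on every Merit40-/- array than on any WT array. It read 6.29, 6.29 and 6.17 on WT replicates 1 to 3, and 7.21, 6.88 and 7.18 on Merit40-/- replicates 1 to 3. The genotypes did not overlap: the lowest Merit40-/- reading lay 0.59 log2 units, or 1.50-fold, above the highest WT reading. The WT arrays averaged 6.25 ± 0.07 (SD, n = 3) and the Merit40-/- arrays 7.09 ± 0.18 (SD, n = 3). The difference of 0.84 on the log2 scale (SE 0.13), or 1.79-fold, was 6.08 times the pooled SD of the arrays and ranked as the 55th highest of the 23185 genes. This difference is what brought Nrg4 into the set, so it is given as a description without a test.

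Without any 1 array, the Nrg4 difference lay between 0.78 and 0.94. Merit40-/- replicate 2, the array without these high muscle or osteoclast genes, gave the smallest Merit40-/- reading, and its difference from the WT mean was 0.63. Nrg4 was also the only member whose 6-array mean of 6.67 lay above the median of all genes (4.93), and 99.6% of the olfactory receptor genes read lower. In bulk RNA, more cells with Nrg4 transcript and more transcript per cell cannot be told apart.

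**Figure D1:**
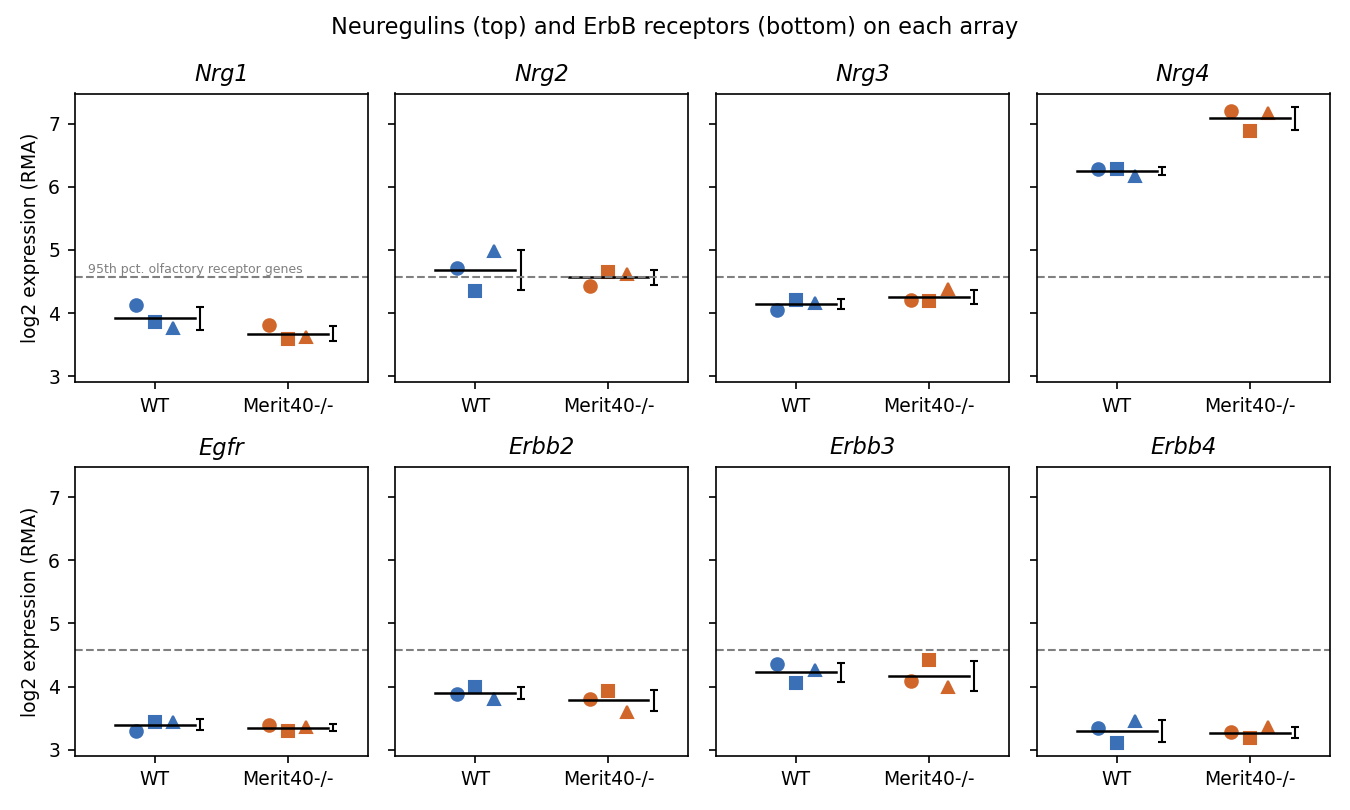
Log2 expression of each gene on the 3 WT (blue) and 3 Merit40-/- (orange) arrays; circles, squares and triangles are replicates 1, 2 and 3, horizontal lines are means, bars beside them are ± 1 SD, and the dashed line is the low-signal mark of 4.58. The Nrg4 readings of the genotypes do not overlap, while those of the other 7 genes do.

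Of the neuregulins that were tested, Nrg1, Nrg2 and Nrg3, none passed, and the readings of WT and Merit40-/- arrays overlapped for each of them. Nrg1, the founding neuregulin with roles in heart and nerve development, read 4.13, 3.86 and 3.77 in WT and 3.81, 3.60 and 3.62 in Merit40-/-. The highest Merit40-/- reading lay 0.04 above the lowest WT reading, so the overlap was narrow. Its difference was -0.24 (SE 0.14), with an adjusted p of 0.999 in limma over all genes. Nrg1 lies on chromosome 8, as does Babam1, with 242 measured genes between them. Without WT replicate 1, the highest of the 6 readings, the Nrg1 difference shrank to -0.14, and without WT replicate 3 it grew to -0.32. The genotypes no longer overlapped for Nrg1 without WT replicate 3 or without Merit40-/- replicate 1, where 19.3% and 19.6% of all genes did not.

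Nrg2, a ligand of ErbB3 and ErbB4 found mainly in the nervous system, read 4.72, 4.35 and 4.98 in WT and 4.43, 4.64 and 4.63 in Merit40-/-. All Merit40-/- readings fell inside the range of the WT arrays. The difference was -0.12 (SE 0.17, adjusted p = 0.999 in limma), and it turned to 0.03 without WT replicate 3. Nrg3, a brain-enriched ligand of ErbB4, read 4.05, 4.21 and 4.15 in WT and 4.21, 4.19 and 4.39 in Merit40-/-. Its highest reading came from Merit40-/- replicate 3, and the other 2 Merit40-/- arrays read below the highest WT array. The difference was 0.12 (SE 0.12, adjusted p = 0.999 in limma). The mean of Nrg2 lay just above the low-signal mark at 4.62, and those of Nrg1 and Nrg3 lay below it at 3.80 and 4.20.

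All 4 receptor genes read below the low-signal mark in both genotypes. Erbb4, the receptor of Nrg4, read 3.34, 3.12 and 3.45 in WT and 3.28, 3.18 and 3.35 in Merit40-/-. These Merit40-/- readings lay within the WT range. The difference was -0.03 (SE 0.13, adjusted p = 0.999 in limma), and 69.2% of the olfactory receptor genes had a lower mean than Erbb4. Erbb3, the kinase-impaired neuregulin receptor, read 4.36, 4.06 and 4.26 in WT and 4.09, 4.43 and 3.99 in Merit40-/-. The highest and the lowest reading of Erbb3 both came from Merit40-/- arrays, replicates 2 and 3. Its difference was -0.06 (SE 0.15, adjusted p = 0.999 in limma).

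Erbb2, the partner receptor without a ligand, read 3.88, 4.002 and 3.81 in WT and 3.81, 3.94 and 3.61 in Merit40-/-. Replicate 3 was the lowest array of each genotype for this gene. The difference was -0.11 (SE 0.13, adjusted p = 0.999 in limma). Egfr, the receptor of EGF, read 3.30, 3.45 and 3.45 in WT and 3.40, 3.30 and 3.36 in Merit40-/-. Its 6 readings spanned 3.30 to 3.45, and its difference was -0.05 (SE 0.11, adjusted p = 0.999 in limma). For the 7 genes other than Nrg4 the 95% intervals of the difference reached from -0.56 at the lowest (Nrg1) to 0.39 at the highest (Nrg3), within 2-fold in either direction. Near the array background RMA compresses differences, so these intervals bound the readings and not the transcripts.

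**Figure D2:**
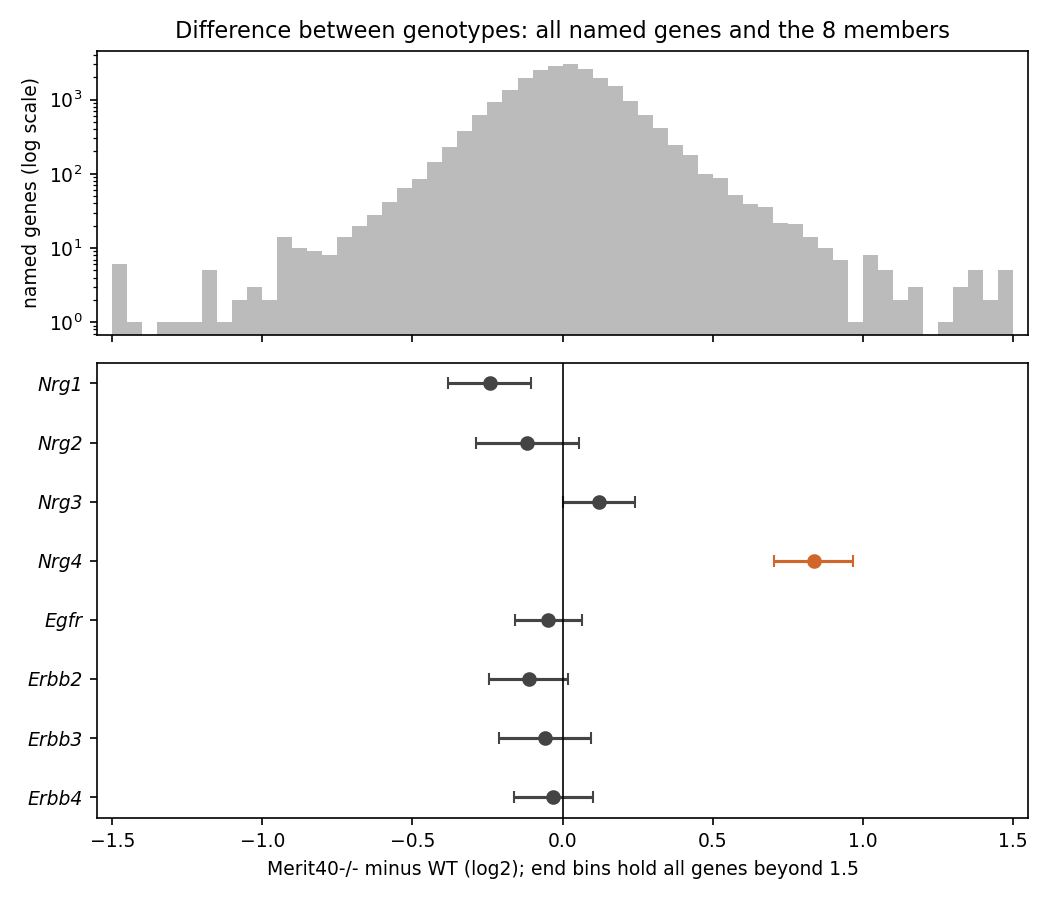
Top, histogram of the Merit40-/- minus WT difference (log2) over 23185 named genes, with a log count axis; bottom, the difference of each of the 8 genes with ± 1 SE from limma. Nrg4, in orange, lies at 0.84, and the other 7 lie between -0.24 and 0.12.

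The counts were set beside those over all genes. In limma 0 of the 7 genes other than Nrg4 passed an adjusted p of 0.05, against 1 of 23185 genes (0.00431%), which was Babam1 and lower, with 0 genes (0%) higher, and 979 genes had an unadjusted p under 0.05. Readings did not overlap for 1 of the 8 genes, Nrg4, which was chosen for that difference, and for 2099 of all genes (9.05%), of which those higher in Merit40-/- made up 4.84% of all genes and those lower 4.22%. Over all genes the middle 95% of differences ran from -0.37 to 0.41, and the 7 genes other than Nrg4 lay inside that range. All 4 receptors had a difference below 0, with a median of -0.05. Each was smaller than its pooled SD between arrays, at 0.231 to 0.826 times that SD, and the sign of Erbb3 and Erbb4 turned when single arrays were left out.

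The other EGF-family ligands, which act through Egfr and partly ErbB4, gave 0 calls among 6 measured genes (Areg was not analysed here). Of these, 2 were higher and 4 lower, with a median difference of -0.09 against 0.0052 over all genes. Without WT replicate 2 this median was -0.18, and without the dimmest 50% of genes, which leaves 2 of the 6 ligands, it was 0.03. Tgfa, a ligand of Egfr, had the lowest difference of all pathway genes listed at -0.52 (SE 0.20, adjusted p = 0.999 in limma). It read 4.09, 3.92 and 3.51 in WT and 3.36, 3.59 and 3.03 in Merit40-/-, so WT replicate 3 lay among the Merit40-/- arrays. Egf itself read 3.88 in WT and 3.65 in Merit40-/- without overlap (difference -0.23, SE 0.14). Tgfa and Egf both read below the low-signal mark. The ligands of this family above it were Hbegf, at 5.92 and 6.02 (difference 0.10, SE 0.16), and Btc, at 5.87 and 5.83, both of which can bind Egfr and ErbB4.

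Genes that take part in cutting ligand precursors or ErbB receptors, as proteases or their partners, gave 0 calls among 14 measured genes, with 7 higher, 7 lower and a median difference of 0.04. Adam17, a main sheddase of this ligand family, read 7.20 in WT and 7.46 in Merit40-/- (difference 0.26, SE 0.14), and Adam10 read 9.42 and 9.38. The lowest member was the metalloprotease gene Adam15 at -0.33 (SE 0.13, adjusted p = 0.999 in limma), without overlap between the genotypes. The highest was the aspartic protease gene Bace2 at 0.32 (SE 0.24), with a high reading of 5.27 in Merit40-/- replicate 3. Its relative Bace1, which cuts Nrg1, read 6.54 and 6.74 without overlap, as did Adam19 at 4.01 and 4.19.

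Genes that restrain ErbB receptors or send them for degradation gave 0 calls among 14 measured genes. Of these, 11 were higher and 3 lower in Merit40-/-, with a median difference of 0.06, where 51.5% of all genes were higher. Lrig1, a membrane protein that lowers ErbB receptor levels, had the highest difference at 0.34 (SE 0.16, adjusted p = 0.999 in limma). It read 4.30, 4.43 and 4.22 in WT and 4.53, 4.48 and 4.95 in Merit40-/-, so the genotypes did not overlap and replicate 3 was farthest up. The ubiquitin ligase gene Stub1 also did not overlap, at a difference of 0.07 (SE 0.11). Rnf41 (Nrdp1), a ubiquitin ligase for ErbB3, differed by 0.07 (SE 0.12), Errfi1 (Mig6), an inhibitor of the Egfr kinase, by 0.22 (SE 0.23), and the ubiquitin ligase gene Wwp1 was lowest at -0.26 (SE 0.16).

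Chaperones and membrane partners of the receptors gave 0 calls among 6 measured genes, with differences from -0.12 for the mucin gene Muc4 to 0.08 for the kinase co-chaperone gene Cdc37. The adaptors and first effectors gave 0 calls among 25 measured genes, with 15 higher, 10 lower and a median of 0.05. Grb10, an adaptor that binds activated receptor kinases, read 8.34 and 8.74 without overlap (difference 0.40, SE 0.14, adjusted p = 0.999 in limma). Plcg1, a phospholipase recruited by receptor kinases, also did not overlap, at 7.09 and 7.39, and the lowest member was the kinase gene Src at -0.34 (SE 0.24). The docking protein gene Gab1 differed by 0.35 (SE 0.16), with overlap.

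Of the 18 RAS-MAPK and AKT genes listed, 11 were analysed here and gave 0 calls, with 7 higher, 4 lower and a median of 0.10. That median ran from 0.02 without WT replicate 3 to 0.19 without WT replicate 1. Akt2 was highest at 0.37 (SE 0.16, adjusted p = 0.999 in limma) and Mtor lowest at -0.16 (SE 0.14), and Araf did not overlap, at a difference of 0.19 (SE 0.11). Over all 76 measured pathway genes outside the set, 0 passed the test in either direction in limma. Of the 76, 3 had an unadjusted p under 0.05 in limma (Tgfa, Adam15 and Grb10), where 979 of all 23185 genes did. Readings did not overlap for 9 of the 76 (11.8%, against 9.05% of all genes), 7 higher and 2 lower.

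**Figure D3:**
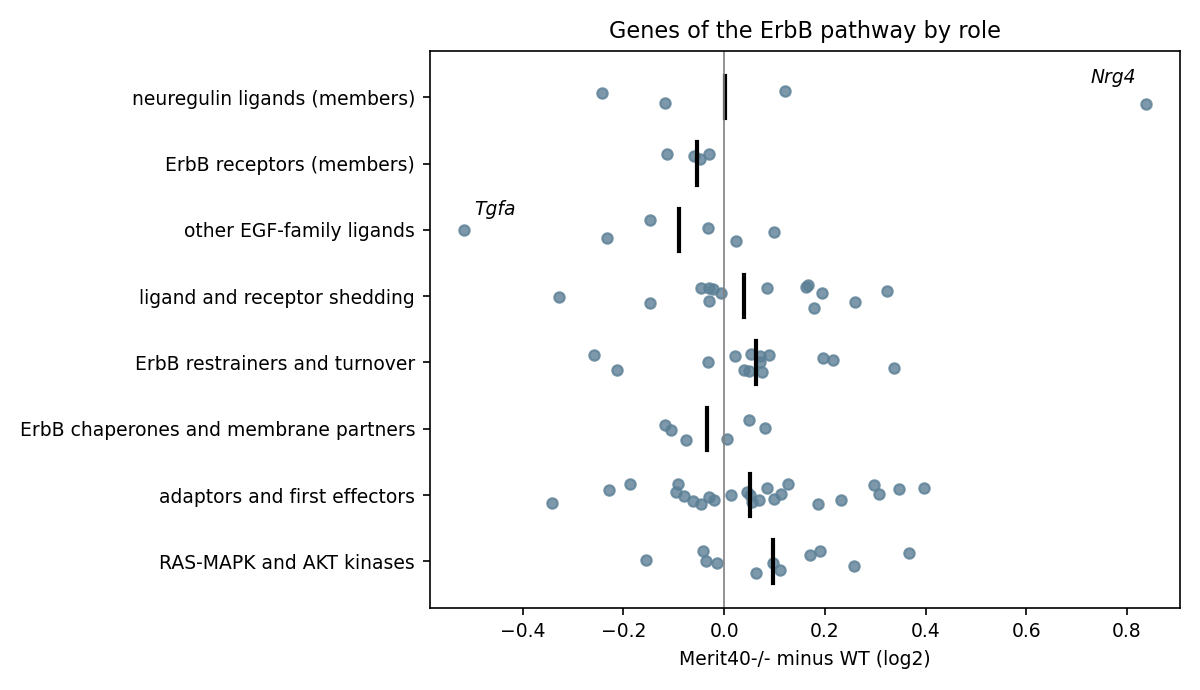
Merit40-/- minus WT difference (log2) of each measured gene, by role in the ErbB pathway; points are genes, with random vertical spread, and black bars are medians. Nrg4 at 0.84 lies to the right of every other point, the next being Grb10 at 0.40, and Tgfa at -0.52 lies farthest to the left.

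The genes whose readings moved most like those of Nrg4 were ranked by the root mean square difference of mean-centred log2 readings over the 6 arrays, among 10573 genes at or above the median level. This likeness mostly reflects the gap between the genotypes, since 6 arrays hold little else, and it is given without a test. The nearest was Adgrg2, an adhesion G protein-coupled receptor (distance 0.144), followed by the lipocalin Lcn12 (0.146), the calmodulin-like gene Calml4 (0.168), the nuclear receptor gene Rora (0.172) and the apoptosis inhibitor gene Faim (0.173). Rora read 6.68, 6.73 and 6.50 in WT and 7.22, 7.07 and 7.19 in Merit40-/-, with Merit40-/- replicate 2 the lowest of its genotype, as for Nrg4. Calml4 differed by 0.61 (SE 0.16).

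Calml4, Rora and Faim lie on chromosome 9, as does Nrg4, with 104, 176 and 373 measured genes between each of them and Nrg4. Chromosome 9 held 5.4% of genes at or above the median level. Of its genes at that level, 5.11% were higher in Merit40-/- without overlap, against 4.53% of such genes on all chromosomes, and it ranked 6 of 20 chromosomes by that share. The genes next to Nrg4 did not share its difference. On one side Fbxo22 differed by 0.10 (SE 0.13) and Ube2q2 by -0.04 (SE 0.12), and on the other Tmem266 by -0.03 (SE 0.11) and Etfa by 0.13 (SE 0.12), each with overlap between the genotypes.

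**Figure D4:**
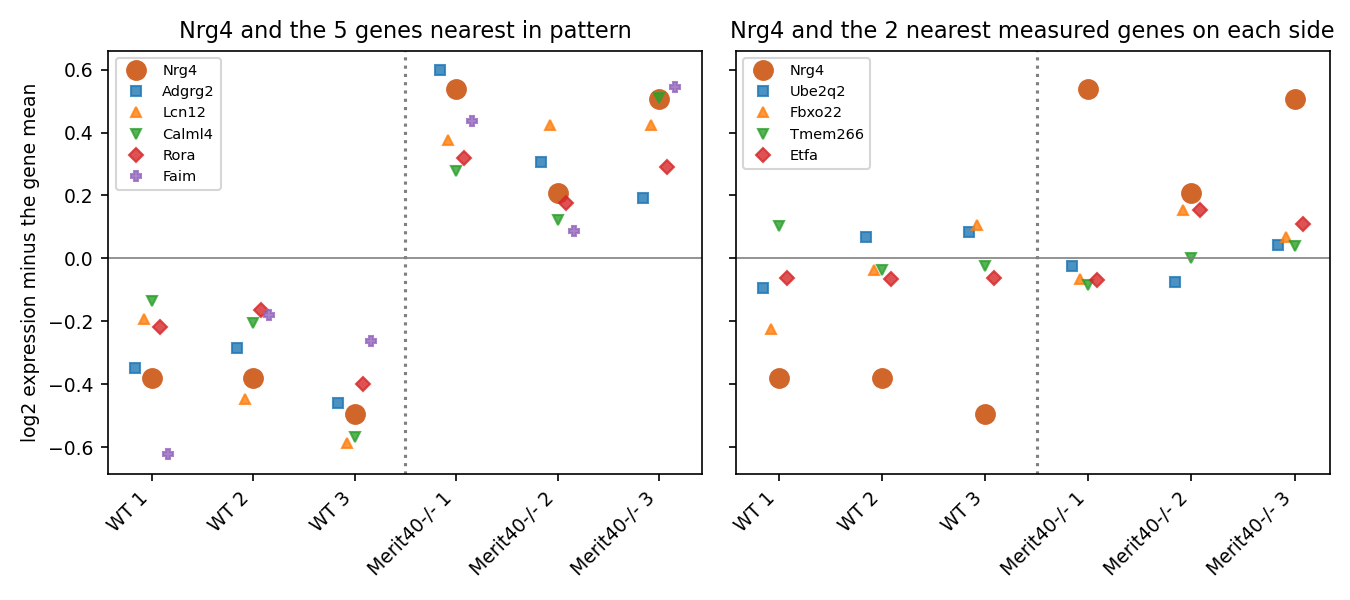
Log2 reading minus the mean of the gene on each of the 6 arrays, for Nrg4 (large orange circles) with the 5 genes nearest in pattern (left) and with the 2 nearest measured genes on each side along chromosome 9 (right). The nearest patterns step up between the genotypes with Nrg4, and the chromosomal neighbours stay close to 0.

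Marker lists of other cell types were set beside Nrg4, and their part in its difference was not tested. Relative to the WT mean, the mean of 10 muscle genes was 3.98 higher in Merit40-/- replicate 1 and 0.22 and 0.04 higher in replicates 2 and 3, and that of 8 osteoclast genes was 1.34 higher in replicate 3 and at most 0.09 higher in the others. Of the 8 osteoclast genes, 3 had means above the low-signal mark, and 6 were higher and 2 lower in Merit40-/-. In replicate 3 Ctsk and Acp5 read 7.94 and 7.91, while Calcr at 3.51 and Dcstamp at 3.58 did not exceed the highest WT reading. Nrg4 was higher in all 3 Merit40-/- arrays. The mean of 6 measured megakaryocyte genes was lower in every Merit40-/- array, at 7.53 to 7.71 against 7.86 to 8.09 in WT. Of the 6, 4 were lower and 2 higher, with a median difference of -0.46, and 0 passed the test in limma. The lower genes were Ppbp (-0.68), Pf4 (-0.60), Itga2b (-0.53) and Gp1bb (-0.40), and Vwf was highest at 0.14 (SE 0.20). The erythroid list of 8 genes read 6.34 to 6.79 in Merit40-/- and 6.66 to 7.25 in WT, with overlap. Of these 8 genes, 7 were lower and 1 higher, with a median difference of -0.33, and 0 passed the test in limma. The lowest were Ermap at -0.90 (SE 0.32) and Car1 at -0.84, and Gata1 read lower without overlap, at -0.37.

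Lists for cells in which this ligand family is well studied overlapped between the genotypes. For adipocytes, 0 of 10 genes lay above the low-signal mark, with list means of 3.61 to 3.76 in WT and 3.60 to 3.83 in Merit40-/-. Adiponectin (Adipoq) read 3.20 and 2.99, and the brown fat gene Ucp1 read 3.41 and 3.32. For Schwann cells and nerve, 4 of 8 measured genes lay above the mark, with list means of 4.41 to 4.55 in WT and 4.44 to 4.57 in Merit40-/-. The myelin gene Mbp was among those above it, while the Schwann cell transcription factor gene Sox10 lay below it, at 3.998 in WT and 4.001 in Merit40-/-. For epithelium, 2 of 8 genes, the keratin genes Krt8 and Krt18, lay above the mark and the list means were 4.61 to 4.71 in WT and 4.64 to 4.74 in Merit40-/-.

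The means of the remaining lists overlapped between the genotypes. The 10 HSC genes averaged 8.17 to 8.49 in WT and 8.26 to 8.54 in Merit40-/-. Of these 10 genes, 6 were higher and 4 lower, and 0 passed the test in limma. Kit was higher and Gfi1 lower (difference -0.245, SE 0.13) without overlap. The 9 granulocyte and monocyte genes averaged 8.34 to 8.74 in WT and 8.40 to 8.89 in Merit40-/-. Of these 9 genes, 7 were higher and 2 lower, with a median difference of 0.06, and 0 passed the test in limma. Ctsg was highest at 0.92 (SE 0.27), with overlap, and S100a8 lowest at -0.10 (SE 0.14). The 9 lymphoid genes averaged 4.38 to 4.80 in WT and 4.53 to 4.63 in Merit40-/-, and the 10 endothelial and stromal genes 5.15 to 5.27 and 5.22 to 5.29.

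**Figure D5:**
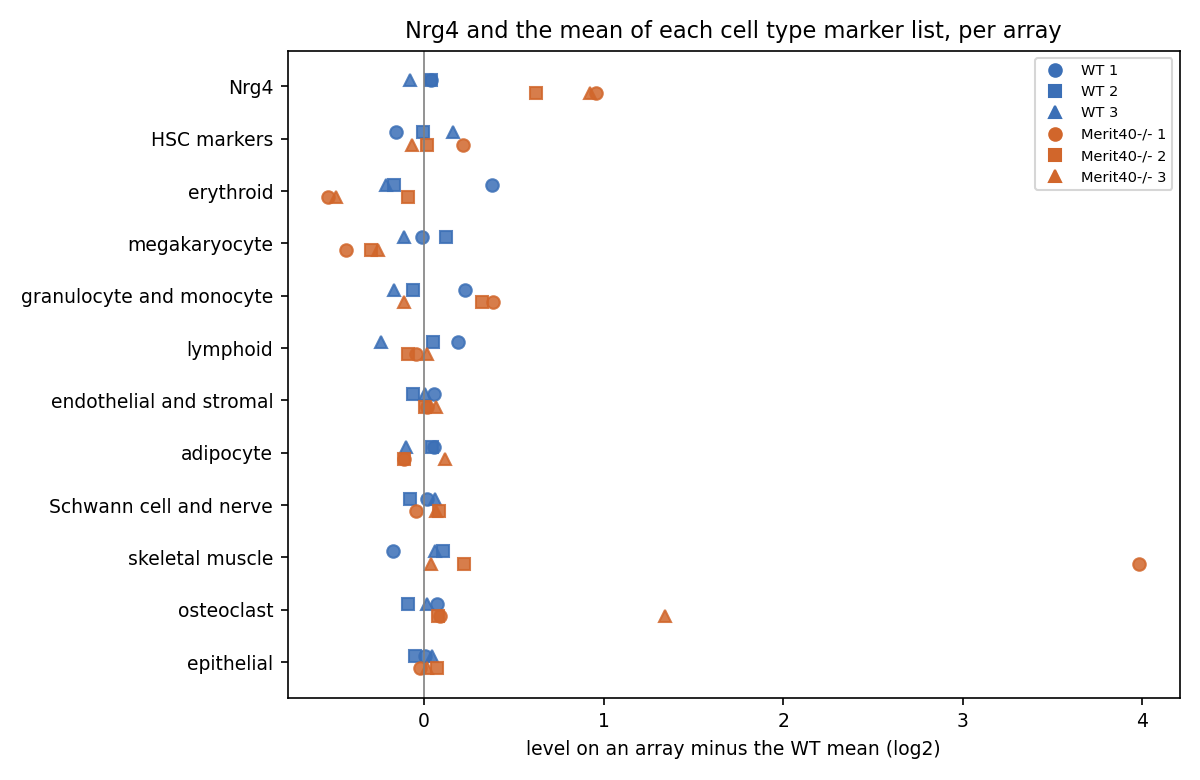
Nrg4 and the mean of each cell type marker list on each array, minus the WT mean (log2); blue marks are WT and orange marks Merit40-/- arrays, with circles, squares and triangles for replicates 1, 2 and 3. The muscle list stands out in Merit40-/- replicate 1 at 3.98 and the osteoclast list in replicate 3 at 1.34, while Nrg4 is higher in all 3 Merit40-/- arrays.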

How the data were processed

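RNA of sorted HSCs (50 ng per labelling with the NuGEN Pico kit, per the labels' protocols) was hybridised to 6 Affymetrix Mouse Gene 2.0 ST arrays. The deposited log2 values were computed by the authors with RMA (affy), per the submitters' processing notes. Their versions, chip definition and genome build are not stated in the sources at hand. The scanner intensities were not analysed here. RMA equalises the arrays and compresses differences near background, and 1 probe set per Entrez Gene number does not separate isoforms. Of 25206 probe sets, 23185 had exactly 1 symbol and 2021 were unnamed here; all 23185 were matched to the GRCm38.p6 gene table and tested unfiltered. limma 3.58.1 in R 4.3.3 (lmFit, eBayes, genotype as the only term, 2-sided) gave differences, SEs and Benjamini-Hochberg adjusted p-values over 23185 genes, with a threshold of 0.05. The code was tested on simulated data. An exact permutation test on 3 against 3 arrays cannot give a 2-sided p below 0.1, so none is given.

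With 3 arrays per genotype the 95% interval of a difference was ±0.342 for the median gene. Members and lists were chosen with earlier results of these data known. Named genes are Babam1, the 8 members, the extremes of each pathway list, the 5 patterns nearest to Nrg4 (predicted loci, small RNAs and chemosensory receptors left out) and its 4 neighbours. Further pathway genes (such as Adam10, Gab1 and Rnf41) and most marker genes were named after their values were seen. As alternatives, the replicate number was added as a block, variances were modelled with a trend, arrays were weighted, and 2 rescalings, 2 filters on dim genes and the omission of each array were tried.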

Additional observations from a re-analysis of the deposited data

How the results depend on the processing

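With all arrays kept, 7 alternatives (replicate block, trended robust variances, array weights, median centring, repeated quantile normalization, and removal of the dimmest 30% or 50% of genes) each called 1 gene and called 0 of the other members still tested. The block, trended variances, weights and filters leave the readings unchanged, so the overlap of the genotypes could not change under them. Under the 2 rescalings 1 member (Nrg4) stayed without overlap. The Nrg4 difference of 0.84 could not change under the block, trended variances or filters. It was 0.83 with array weights, 0.85 with median centring and 0.82 with repeated quantile normalization. The 30% filter kept 6 of the 8 members, without Egfr and Erbb4, and the 50% filter kept 1, Nrg4, so that it tested no other member. The replicate numbers did not pair the arrays (correlations of deviations -0.05, -0.003 and 0.04 for numbers 1, 2 and 3). The fit with the replicate block called 1 gene and 0 of the 7 other members. With each array left out in turn, 1 gene and 0 of the 7 other members were called, Nrg4 ranged from 0.78 to 0.94, and 1 to 3 members did not overlap, where 16.9% to 19.6% of all genes did not, since fewer arrays overlap less often. Near 0, Erbb3 (-0.189 to 0.031) turned to 0.007 without WT replicate 1 and 0.031 without Merit40-/- replicate 3, Erbb4 (-0.125 to 0.043) to 0.043 without WT replicate 3 and 0.013 without Merit40-/- replicate 2, and Nrg2 (-0.281 to 0.031) to 0.031 without WT replicate 3. The list medians ranged from 0.02 to 0.07 for adaptors, -0.07 to 0.01 for chaperones and partners, 0.03 to 0.08 for restrainers, 0.02 to 0.10 for shedding, -0.18 to -0.06 for other EGF-family ligands and 0.02 to 0.19 for RAS-MAPK and AKT genes. The adjusted p of the 7 genes other than Nrg4 was at least 0.882 in limma under every alternative that kept them. With Merit40-/- replicate 2 alone against WT, a setting chosen after seeing the data that takes the lone array to vary like the WT arrays, 2 genes were called (Babam1 and Mir3079), 4 members did not overlap (50.9% of all genes), Nrg4 differed by 0.63, Erbb2 and Erbb3 turned to 0.04 and 0.20, and the medians of the other ligands and the RAS-MAPK and AKT genes were -0.17 and 0.21. For the receptors the limit is signal over background, as all 4 read below the low-signal mark.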
